A study of Rattus norvegicus with 70 samples.

Results

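Testes of rats exposed to a mixture of 3 bisphenols (Mix) were compared with testes of rats exposed to bisphenol A alone (BPA). The libraries were chosen by the organ and treatment in the labels. This gave 3 testis libraries of Mix rats and 3 of BPA rats, 6 of the 70 libraries in the series. A further 3 testis libraries, of vehicle rats, served as the reference level. They were also part of the same fit, so they entered the estimate of spread behind each p-value. Pregnant Sprague-Dawley (SD) dams were dosed by mouth, starting on gestational day 6 and ending on lactation day 6. The daily dose of BPA dams was 500 mg/kg BPA. Mix dams received the same total, made up of BPA (160 mg/kg), BPF (160 mg/kg) and BPS (180 mg/kg). Litters were culled on postnatal day 4 to 3 male and 3 female pups, which were themselves dosed with their dam's substance at a total of 250 mg/kg/day from postnatal day 7, and the organs were taken at postnatal day 63. The litter of each rat is not given in the labels, so rats within 1 group could be littermates, and the p-values measure the spread between these rats. BPA content and the presence of BPF and BPS changed together between the groups, so a part of a difference due to less BPA and a part due to the other compounds cannot be told apart.

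The 3 compounds share a pair of phenol rings and differ in the bridge between them, an isopropylidene group in BPA, a methylene group in BPF and a sulfonyl group in BPS. Bisphenols are studied in the testis because they can bind estrogen receptors and interfere with androgen action. In the seminiferous tubules of the adult testis, spermatogonia divide, enter meiosis as spermatocytes and mature through round and elongating spermatids, held by Sertoli cells and enclosed by contractile peritubular myoid cells. Leydig cells between the tubules make testosterone from cholesterol. Most RNA of a whole adult testis comes from germ cells, and in such bulk RNA fewer cells of a type and less RNA per cell cannot be told apart.

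Messenger RNA was counted near its 3′ end, with 7432039 to 7872807 counts per Mix library, 8296329 to 9047318 per BPA library and 9135550 to 10929957 per vehicle library. The tissue label was checked against its markers. The spermatid nuclear protein transcript Tnp1 reached 33520 to 54500 CPM (counts scaled by the library total). The meiotic chromosome axis transcript Sycp3 reached 889.5 to 1276 CPM. Their highest values in any library of female rats were 2929 CPM for Tnp1 and 113.2 CPM for Sycp3. The origin of these counts in female rats was not tested. Ribosomal RNA rows took 1.76%, 5.48% and 6.38% of the counts in BPA rats 1, 2 and 3, and 4.87%, 3.55% and 5.11% in Mix rats 1, 2 and 3. The Mix minus BPA difference in this share was -0.0258 percentage points (two-sided exact permutation p = 1, where 3 against 3 cannot go below 0.1). On the first principal component, with 27.7% of the variance, BPA rats 2 and 3 stood at -28.64 and -42.4, while BPA rat 1 stood at 5.47 and no other library was below -1.43. BPA rats 2 and 3 therefore stood apart from BPA rat 1, and numbers of called genes are given below with and without them. The gene differences and medians below include them unless stated.

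In Mix testes 82 genes were higher and 4 were lower than in BPA testes at an adjusted p below 0.05 (edgeR quasi-likelihood test, Benjamini-Hochberg adjustment over 11098 genes), which is 0.739% and 0.036% of the genes tested. The median difference of the 82 higher genes was 0.88 on the log2 scale, a 1.84-fold difference, and 20 of them differed by at least 2-fold. Over all genes tested the median difference was 0.00. Before adjustment 1913 genes, 17.2% of those tested, had a p below 0.05, with 1085 higher and 828 lower in Mix. In all 86 genes the 3 Mix libraries lay wholly on one side of the 3 BPA libraries, which was so for 9.69% of all genes with Mix above and 7.97% with Mix below. The call rests on single rats. The count was 0 without BPA rat 2, 0 without BPA rat 3, 0 without vehicle rat 3, 1 without Mix rat 2 and 1 without Mix rat 3. It was 26 without vehicle rat 1 and 14 without vehicle rat 2, but 994 without BPA rat 1 and 432 without Mix rat 1. When the 6 Mix and BPA libraries were fitted without the vehicle libraries, it was 0. With BPA rats 2 and 3 both left out it was 0. Each of the 86 genes kept the sign of its difference in every one of these fits. With Mix and BPA libraries that do not overlap, leaving out a library could hardly reverse a sign, so nothing is read from this.

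**Figure D1:**
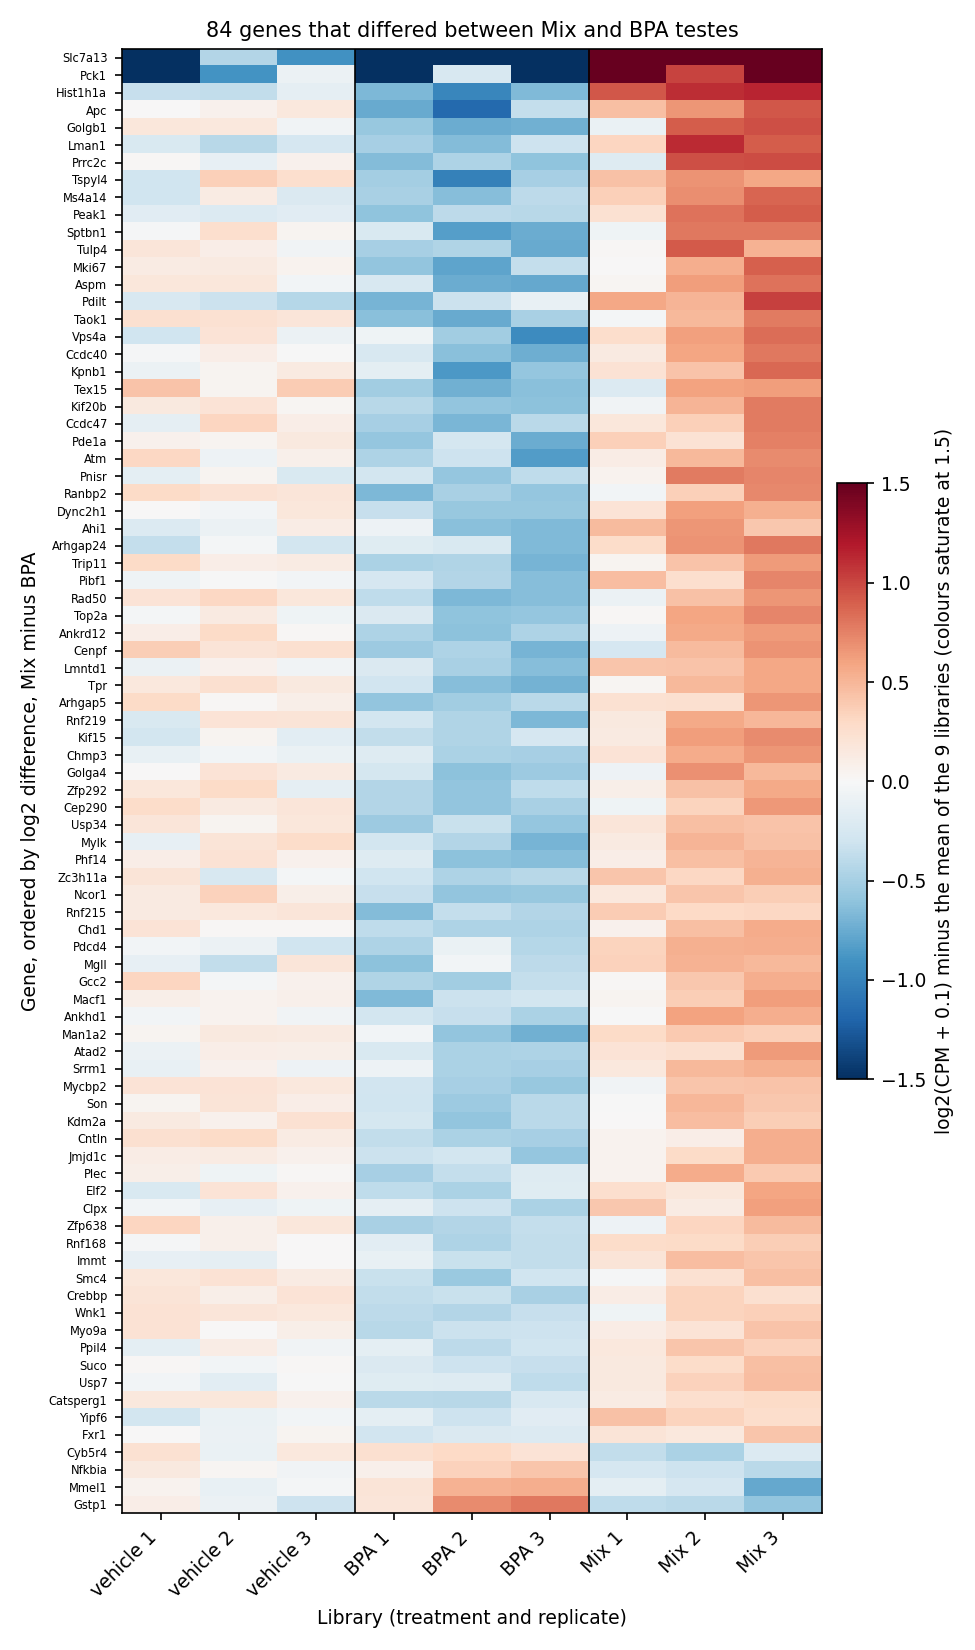
Level of 84 of the 86 genes in the 9 testis libraries, as log2(CPM + 0.1) minus each gene's mean over the libraries, with genes ordered by their Mix minus BPA difference. The 80 upper genes are blue in the BPA columns and red in the Mix 2 and Mix 3 columns, and the vehicle columns lie between the groups on average. Mix 1 is lower than Mix 2 and Mix 3 in most rows, and in some, such as Golgb1, it is blue.

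Vehicle testes lay between the others in the genes called. In all 86 genes the vehicle mean fell between the BPA and Mix means, against 44.4% of all tested genes, although choosing genes by their Mix minus BPA difference favours this order. Every BPA library was below every vehicle library in 68 of the 82 higher genes and in 9.88% of all genes tested. Every Mix library was above every vehicle library in 37 of them and in 6.24% of all genes. Choosing genes by Mix minus BPA favours both, and nothing is read from these counts. The median difference of the 82 genes was -0.54 for BPA minus vehicle and 0.34 for Mix minus vehicle on the log2 scale. Both contrasts use the same vehicle libraries. Neither gave a gene past the threshold in edgeR: BPA against vehicle had 0 genes with 1337, or 12%, at an unadjusted p below 0.05, and Mix against vehicle had 0 with 591, or 5.33%. DESeq2 called 102 and 19 genes in these comparisons. Without BPA rat 1 the BPA against vehicle count was 420 and without Mix rat 1 it was 12. It was 1 without vehicle rat 3 and 1 without Mix rat 3, and Mix against vehicle gave 1 without vehicle rat 3. Among the Mix rats, rat 1 was the lowest in 69 of the 82 genes and lay within or below the vehicle range in 44, whereas rat 2 was above that range in 76 and rat 3 in 82.

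Promoters of 4 genes on which the account below turns are shown, as the 250 bases before the start of each gene in RefSeq on build GRCr8, read 5′ to 3′ on the gene's own strand. Ms4a14 had the smallest p, Hist1h1a the largest difference of the genes named by size, Gstp1 the largest fall, and Pck1 the largest difference of any member of a gene list. Capitals mark matches to 5 motifs, searched on both strands, and none of the matches overlap. TATAAA stands for the TATA box, which places the start of transcription, and CCAAT for the box of that name. GGGCGG stands for the GC box, which binds the SP family of factors. ACGTCA stands for the half-site of the cAMP response element, and TGANTCA for the element bound by AP-1.
Ms4a14, chr1:217389840-217390089, minus strand: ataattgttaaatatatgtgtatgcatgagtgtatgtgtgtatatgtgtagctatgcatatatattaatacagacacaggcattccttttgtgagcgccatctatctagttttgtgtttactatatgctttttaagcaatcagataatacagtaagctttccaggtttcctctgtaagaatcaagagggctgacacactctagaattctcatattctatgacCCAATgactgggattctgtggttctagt
Hist1h1a (H1f1 in RefSeq), chr17:41794869-41795118, minus strand: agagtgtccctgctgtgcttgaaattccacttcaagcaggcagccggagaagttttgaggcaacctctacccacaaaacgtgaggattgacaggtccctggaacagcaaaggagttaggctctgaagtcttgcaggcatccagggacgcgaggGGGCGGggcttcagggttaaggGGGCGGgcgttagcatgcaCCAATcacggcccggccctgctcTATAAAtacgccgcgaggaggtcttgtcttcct
Gstp1, chr1:210769706-210769955, minus strand: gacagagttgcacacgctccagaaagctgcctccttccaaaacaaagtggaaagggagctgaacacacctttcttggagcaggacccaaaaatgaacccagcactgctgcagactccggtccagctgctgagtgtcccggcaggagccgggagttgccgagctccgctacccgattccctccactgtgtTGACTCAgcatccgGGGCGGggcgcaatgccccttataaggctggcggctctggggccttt
Pck1, chr3:182348322-182348571, plus strand: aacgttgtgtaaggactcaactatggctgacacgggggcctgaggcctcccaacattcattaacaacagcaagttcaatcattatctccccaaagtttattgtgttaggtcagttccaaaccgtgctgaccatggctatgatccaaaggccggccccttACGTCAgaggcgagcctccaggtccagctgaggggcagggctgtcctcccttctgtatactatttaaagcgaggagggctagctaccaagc
The Hist1h1a window held a TATA box 33 to 28 bases before the start, a CCAAT box 56 to 52 bases before it and 2 GC boxes. The Gstp1 window held an AP-1 element 61 to 55 bases and a GC box 47 to 42 bases before the start, the Pck1 window held a cAMP response element half-site 91 to 86 bases before it, and the Ms4a14 window held only a CCAAT box, 28 to 24 bases before it. Of 33469 rat promoter windows, 12.9% hold the TATA box letters, 34.0% the CCAAT letters, 30.5% the GC box letters, 6.9% the half-site and 6.3% the AP-1 letters, and each match is a description of the letters, not of a site in use.

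Ms4a14, a member of the MS4A family of membrane-spanning proteins, gave 671, 603 and 718 CPM in BPA rats 1, 2 and 3 and 1211, 1527 and 1722 CPM in Mix rats 1, 2 and 3. The vehicle rats had 763, 1025 and 811 CPM, so all 3 Mix rats were above all vehicle rats while the BPA rats were just below them. The mean rose from 664 ± 58 in BPA to 1487 ± 258 CPM in Mix (SD, n = 3), a log2 difference of 1.16 ± 0.15 (SE; edgeR adjusted p = 0.0239). Its call held in 4 of the 9 fits that each left out a library, with a highest adjusted p of 0.113. The other 2 tested members of the MS4A family did not pass, and the median over the 3 was -0.20.

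Hist1h1a encodes a linker histone of the H1 family. It gave 2.05, 1.64 and 2.06 CPM in the BPA rats, 2.59, 2.56 and 3.02 CPM in the vehicle rats and 6.44, 7.27 and 7.46 CPM in the Mix rats. The Mix rats were tightly grouped and far above the other 6 libraries, and the log2 difference from BPA was 1.87 ± 0.28 (edgeR adjusted p = 0.0239). It was the only one of 14 tested histone genes that passed, and the median of the 14 was -0.12. Tspyl4, of the TSPY-like family, rose from 12.4 ± 2.39 to 28.9 ± 2.46 CPM (SD, n = 3), and all 3 Mix rats were above all vehicle rats.

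The families named from here on were drawn up from related symbols after the called genes had been seen. Their counts describe where called genes fell, beside 0.739% of all genes called higher, and no enrichment was tested. Golgb1, the Golgi tethering protein giantin, gave 105, 93.1 and 94.97 CPM in BPA rats and 145, 293 and 306 CPM in Mix rats, with 176, 174 and 151 CPM in vehicle rats. Mix rat 1 was below the vehicle rats and rats 2 and 3 were well above them, and the log2 difference from BPA was 1.34 ± 0.21 (edgeR adjusted p = 0.0249). Lman1, a cargo receptor between the endoplasmic reticulum and the Golgi, rose from 12.8 ± 1.54 to 31.6 ± 8.54 CPM (SD, n = 3). Of 12 tested golgins and other Golgi coiled-coil proteins, 4 were called higher (Golgb1, Trip11, Gcc2 and Golga4), none was called lower and the median was 0.40.

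Mki67, which coats mitotic chromosomes and marks dividing cells, gave 77.6, 67.7 and 91.1 CPM in BPA rats, 117, 171 and 218 CPM in Mix rats and 121.0 to 128.2 CPM in vehicle rats. BPA rats were below the vehicle rats, and Mix rat 1 was also below them, with a log2 difference of 1.10 ± 0.19 between Mix and BPA (edgeR adjusted p = 0.0277). Top2a, the topoisomerase that untangles chromosomes, rose from 75.0 ± 11.7 to 143 ± 34.8 CPM (SD, n = 3; log2 difference 0.93), and Aspm, a spindle pole protein, from 25.6 ± 5.65 to 54.5 ± 14.4 CPM (log2 difference 1.09). On the list of 24 cell cycle genes Mki67 and Top2a were called higher, none was called lower, and the list median was 0.00. In 4 other members Mix was below BPA in every library, as in 7.97% of all genes tested, and nothing is read from this count. None of the 4 passed: the cyclin Ccnd2 at -1.09 ± 0.52, the replication helicase subunit Mcm2 at -0.69 ± 0.23, the mitotic activator Cdc20 at -0.40 ± 0.14 and the kinase Plk1 at -0.14 ± 0.10. The mitotic cyclin Ccnb1 differed by 0.01 ± 0.13 and the kinase Cdk1 by 0.05 ± 0.14, while the replication clamp Pcna gave -0.25 ± 0.13, none of which passed. Of 8 tested SMC ATPases and Rad50, Rad50 and Smc4 rose, all 8 differences were above 0 and the median was 0.59.

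Apc, the scaffold of the complex that degrades beta-catenin, gave 6.14, 4.57 and 8.12 CPM in BPA rats, 14.3, 16.6 and 19.97 CPM in Mix rats and 10.5 to 11.7 CPM in vehicle rats. The 3 groups did not overlap, and the log2 difference was 1.44 ± 0.23 (edgeR adjusted p = 0.0249). Sptbn1, a beta spectrin of the membrane skeleton, rose from 43.0 ± 10.3 to 94.5 ± 28.6 CPM (SD, n = 3). Of 7 tested spectrins and plakins, Sptbn1, Macf1 and Plec rose and the median was 0.78. Peak1, a pseudokinase of the actin cytoskeleton, rose by 1.16 on the log2 scale, Prrc2c, a proline-rich coiled-coil protein, by 1.26, and Tulp4, of the tubby-like family, by 1.10. In Prrc2c and Tulp4 Mix rat 1 lay below or within the vehicle range.

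Dync2h1, the motor chain of retrograde transport in cilia, gave 108, 92.2 and 92.3 CPM in BPA rats and 158, 209 and 198 CPM in Mix rats (log2 difference 0.95 ± 0.13; edgeR adjusted p = 0.0239). The Mix rats were all above the BPA rats, and Mix rat 1 was the lowest of them. Catsperg1, an accessory subunit of the CatSper calcium channel of sperm, rose by 0.57 ± 0.10, and Pdilt, a testis chaperone of the disulfide isomerase family, by 1.08 ± 0.17. In other families 3 of 20 nuclear pore and import genes rose (Tpr, Ranbp2 and Kpnb1; median 0.13), as did 2 of 17 chromodomain and PHD proteins (Chd1 and Phf14; median 0.50), 2 of 28 kinesins (Kif20b and Kif15; median 0.42) and 1 of 24 centrosomal CEP genes (Cep290; median 0.16). None of their members was called lower, where 0.036% of all genes were, and each of these families had some differences below 0.

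Only 4 genes were called lower in Mix. Gstp1, a glutathione transferase that conjugates electrophiles, gave 33.0, 47.7 and 50.5 CPM in BPA rats, 22.3, 22.1 and 19.2 CPM in Mix rats and 23.5 to 31.1 CPM in vehicle rats. BPA rats 2 and 3, the libraries that stood apart, were the highest, and the log2 difference was -1.04 ± 0.18 (edgeR adjusted p = 0.0277). Its reads may be shared with near-identical copies, since the handling of reads with several alignments is not given in the sources used here. Mmel1, a neprilysin-like metallopeptidase, fell from 186 ± 24.0 to 107 ± 23.2 CPM (SD, n = 3). Nfkbia, the inhibitor that holds NF-kappaB in the cytoplasm, fell by 0.61 ± 0.13 on the log2 scale, and Cyb5r4, a cytochrome b5 reductase, fell by 0.60 ± 0.12. In all 4 the vehicle mean lay between the other means. On the list of 24 NRF2 and glutathione genes Gstp1 was the only member that passed, and the list median was 0.02.

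**Figure D2:**
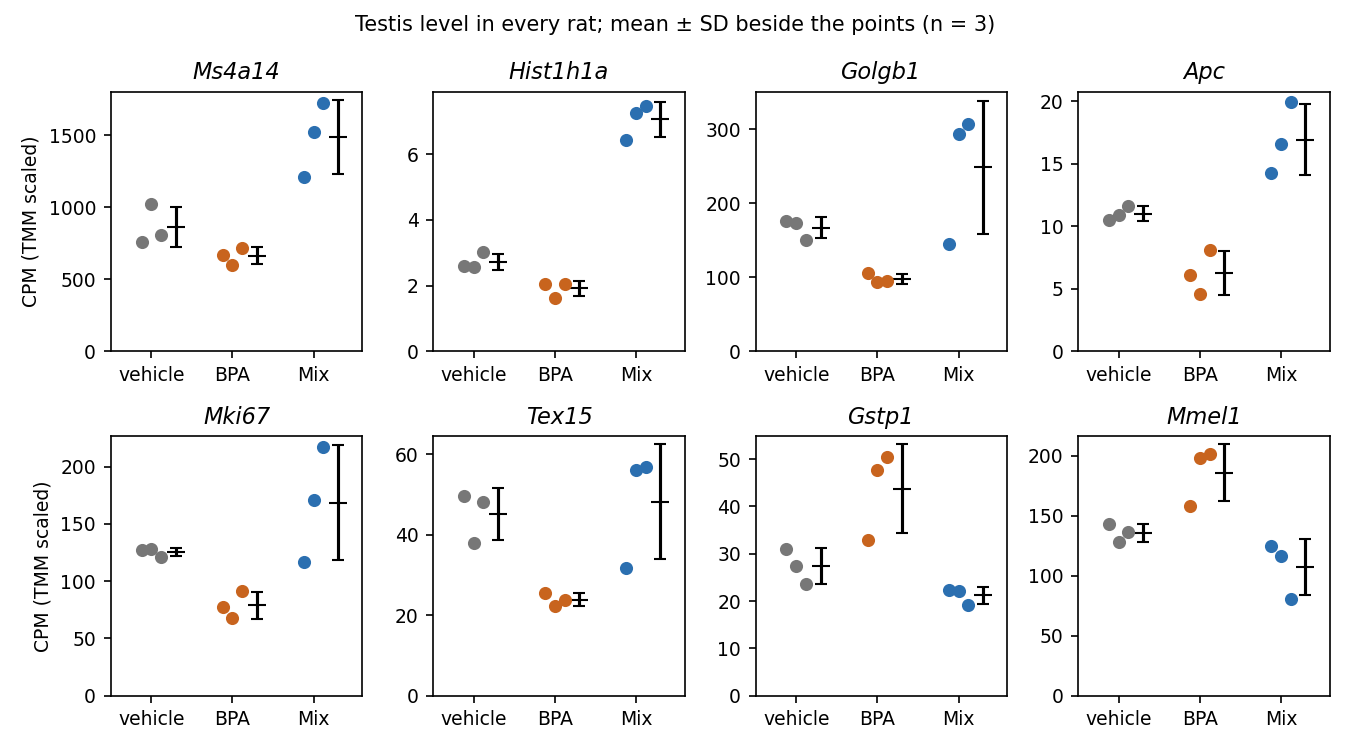
CPM of 8 genes in every testis library by treatment (points), with the mean ± SD of each group of 3 beside them. Mix points lie above BPA points in the first 6 genes and below them in Gstp1 and Mmel1, and the lowest Mix point of Golgb1, at 145 CPM, lies below the vehicle points.

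Leydig cell and androgen synthesis genes did not pass. Of 25 listed symbols 23 were in the table and 18 passed the filter on low counts. None of the 18 tested members was called in either direction, and the median difference was 0.03. Star, which carries cholesterol into mitochondria, gave 7.22, 18.5 and 8.12 CPM in BPA rats and 5.88, 12.6 and 28.3 CPM in Mix rats. Cyp11a1, which makes pregnenolone from cholesterol, gave 3.34, 1.88 and 1.29 CPM against 1.96, 5.48 and 6.57 CPM, a log2 difference of 1.09 (95% interval for this gene alone 0.02 to 2.17; edgeR adjusted p = 0.285). Cyp17a1, which makes androgen precursors, gave 87.2, 139 and 68.8 CPM against 75.2, 152 and 190 CPM. Insl3, the Leydig cell peptide hormone, gave 146, 193 and 213 CPM against 121, 237 and 278 CPM. In these genes Mix rat 1 was the lowest Mix library and the groups overlapped. Hsd3b1, a steroid dehydrogenase, did not overlap, with 51.4 to 81.4 CPM in BPA rats and 85.0 to 97.9 CPM in Mix rats, but its difference of 0.40 ± 0.17 did not pass (edgeR adjusted p = 0.262). The receptor for luteinizing hormone, Lhcgr, differed by 0.62 (95% interval -0.01 to 1.24), Hsd17b3, which makes testosterone in the testis, by 0.54 (-0.51 to 1.58) and Scarb1, which takes up cholesterol from lipoprotein, by 0.20 (-0.28 to 0.68). The other members ranged from -0.63 for Hsd3b7 to 0.10 for Fdxr. The intervals of Hsd17b3 and Scarb1 span 0, while that of Cyp11a1 lies just above 0 without adjustment and that of Lhcgr reaches just below it. Of 22 cholesterol synthesis genes none passed, with a median of 0.00, and of 11 tested receptors for steroids, bisphenols or xenobiotics none passed, with a median of 0.06.

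Across 4 lists for germ cell stages 1 member passed, beside 0.775% of all genes tested. None of 23 meiotic prophase genes, 20 round spermatid genes and 23 elongating spermatid genes passed, with medians of 0.11, -0.10 and 0.09. The abundant spermatid transcript Tnp1 gave 39000, 50450 and 58270 CPM in BPA rats and 53810, 33270 and 35140 CPM in Mix rats, which overlap. Of the 23 meiotic genes 3 had Mix above BPA in every library, as in 9.69% of all genes tested. Another 3 had Mix below it, as in 7.97%, and nothing is read from these counts. The former were Mybl1, a germ cell transcription factor, at 0.53 ± 0.12, and Syce1 and Sycp2, parts of the synaptonemal complex, at 0.48 ± 0.12 and 0.42 ± 0.11, with edgeR adjusted p values of 0.0648, 0.0772 and 0.0776. The latter were Mei1, needed for meiotic DNA breaks in mouse, at -0.76 ± 0.24, the lactate dehydrogenase Ldhc at -0.33 ± 0.12 and the cyclin Ccna1 at -0.22 ± 0.10, with edgeR adjusted p values of 0.136, 0.182 and 0.274. The lowest difference of the list was that of Tex101, a germ cell surface protein, at -0.85 ± 0.28, whose groups overlapped. Tex15, needed in mouse for repair of meiotic DNA breaks, was placed on the spermatogonial list and was the 1 of its 7 tested members that rose. It gave 25.5, 22.3 and 23.8 CPM in BPA rats, 31.8, 56.0 and 56.9 CPM in Mix rats and 37.8 to 49.6 CPM in vehicle rats (log2 difference 1.01 ± 0.21; edgeR adjusted p = 0.0438). All BPA rats and Mix rat 1 were below the vehicle rats, and the Mix minus vehicle difference was 0.10. The median of the spermatogonial list was -0.12. Of 6 tested Y- and X-linked germ cell genes none passed, with a median of 0.14.

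Among somatic lists, 1 of 10 peritubular myoid and smooth muscle genes rose. Mylk, the kinase that starts smooth muscle contraction, gave 34.0, 30.3 and 25.4 CPM in BPA rats and 45.3, 58.8 and 56.0 CPM in Mix rats, with 38.0 to 49.96 CPM in vehicle rats (log2 difference 0.83 ± 0.16; edgeR adjusted p = 0.0376). The median of that list was 0.63 and 9 of 10 differences were above 0, but the smooth muscle myosin Myh11 (0.96 ± 0.28) and actin Acta2 (-0.16 ± 0.21) did not pass. None of 22 Sertoli genes passed (median -0.14), nor any of 16 genes of the blood-testis barrier (median -0.07), 11 endothelial genes (median 0.18) or 11 fibroblast and matrix genes (median -0.16). None of 6 erythroid genes passed, with a median of -0.63, and the globins Hba1 and Hba2, whose near-identical reads may be shared, differed by -0.71 and -0.70.

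**Figure D3:**
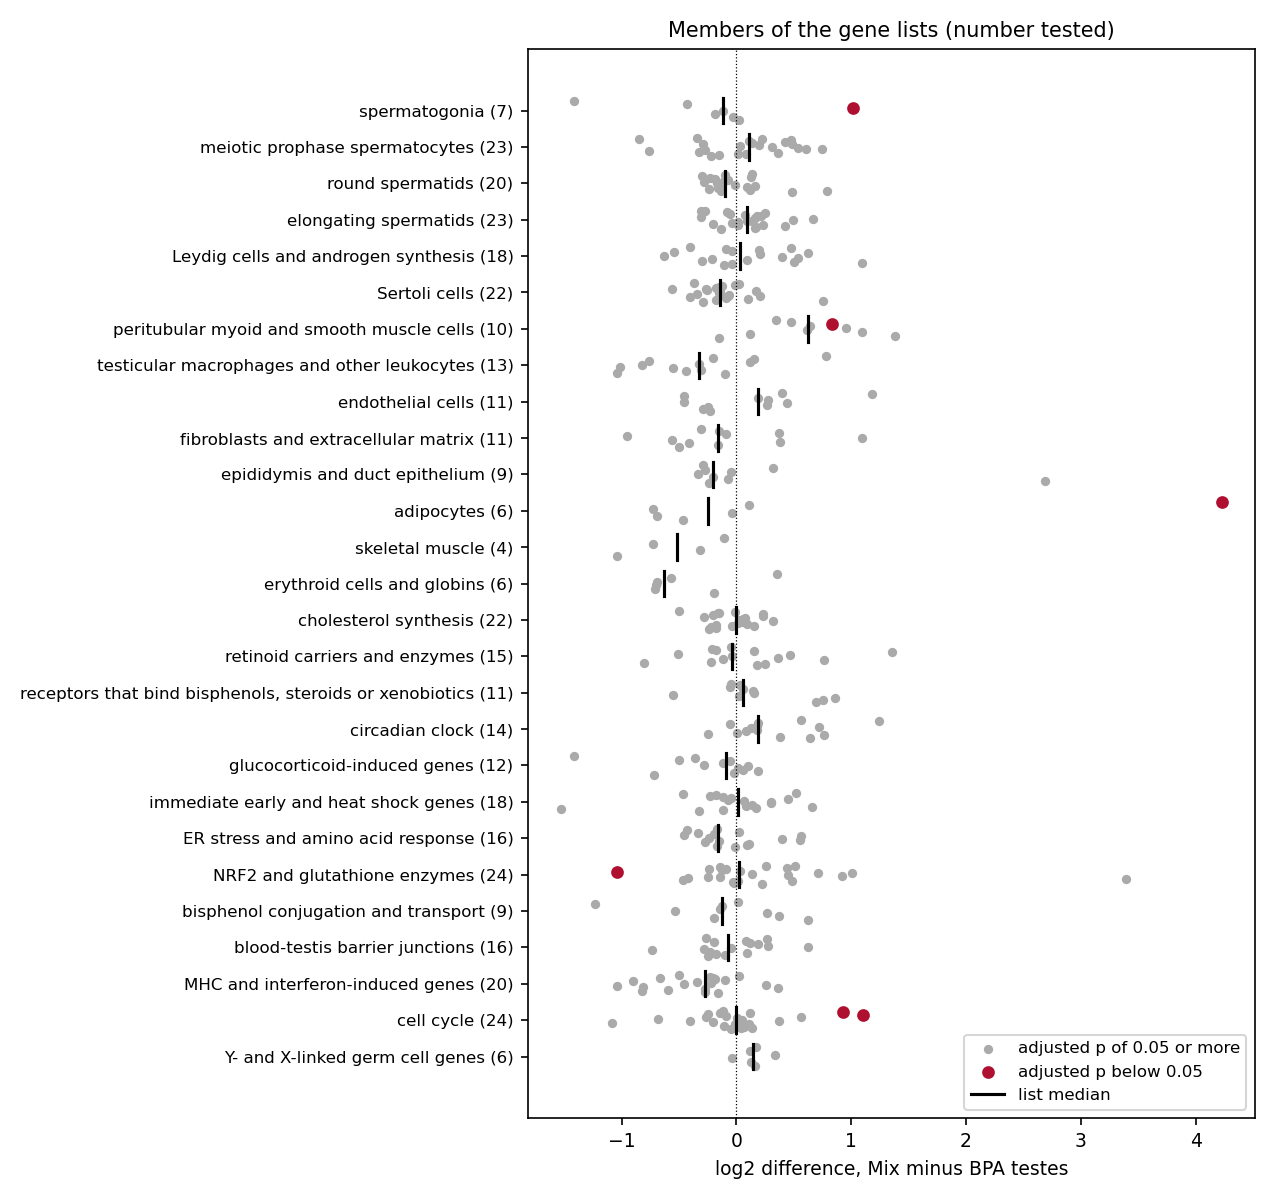
Mix minus BPA log2 differences of the tested members of 27 gene lists, with members past the threshold in red and the list median as a bar. Red points are Tex15, Mylk, Pck1, Gstp1, Mki67 and Top2a; most list medians lie near 0.

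Among the higher genes, 2 were kidney-enriched. Pck1, the enzyme that commits carbon to glucose synthesis, was on the adipocyte list and gave 0.108, 1.17 and 0.387 CPM in BPA rats, 0.432, 0.707 and 1.31 CPM in vehicle rats and 21.3, 2.93 and 7.59 CPM in Mix rats (log2 difference 4.23 ± 0.78; edgeR adjusted p = 0.0308). That difference was 3.22 without Mix rat 1 and 5.40 without BPA rat 2, and it passed in 2 of the 9 fits that left out a library. Slc7a13, an amino acid transporter of the kidney tubule, had 0 counts in the BPA libraries, 3 counts in the vehicle libraries and 53, 15 and 13 counts in Mix rats 1, 2 and 3, at least 30.4-fold higher in Mix against a floor of 3 counts over the BPA group. Without Mix rat 1 it was at least 15.5-fold higher. Both were highest in Mix rat 1. A set of 26 kidney-enriched rows, with at least 500 CPM in female kidney and at most 1 CPM in vehicle testis as group means, summed to 5.53, 14.4 and 4.70 CPM in BPA testes, 3.61, 5.95 and 11.1 CPM in vehicle testes and 122.6, 28.4 and 47.0 CPM in Mix testes. Mix testes were above all other testes, and 26, 23 and 26 of the 26 rows had a count in them, against 12, 15 and 13 in BPA testes and 11 to 20 in vehicle testes. The rows were chosen to be low in these vehicle testes, so only the comparison with BPA testes is free of that choice. Of the 12 rows that passed the filter on low counts Pck1 and Slc7a13 were called. Rows near 0 in BPA and vehicle testes could pass that filter through the Mix libraries, so nothing is read from this count. The part of kidney RNA in the differences of Pck1 and Slc7a13 was not tested. Gpx3, a secreted peroxidase on the glutathione list, had a difference of 3.39 ± 0.82 and Cdh16, a cadherin on the duct epithelium list, 2.69 ± 0.73, and neither passed. With the kidney-enriched rows removed, 79 genes were called, 75 higher and 4 lower.

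**Figure D4:**
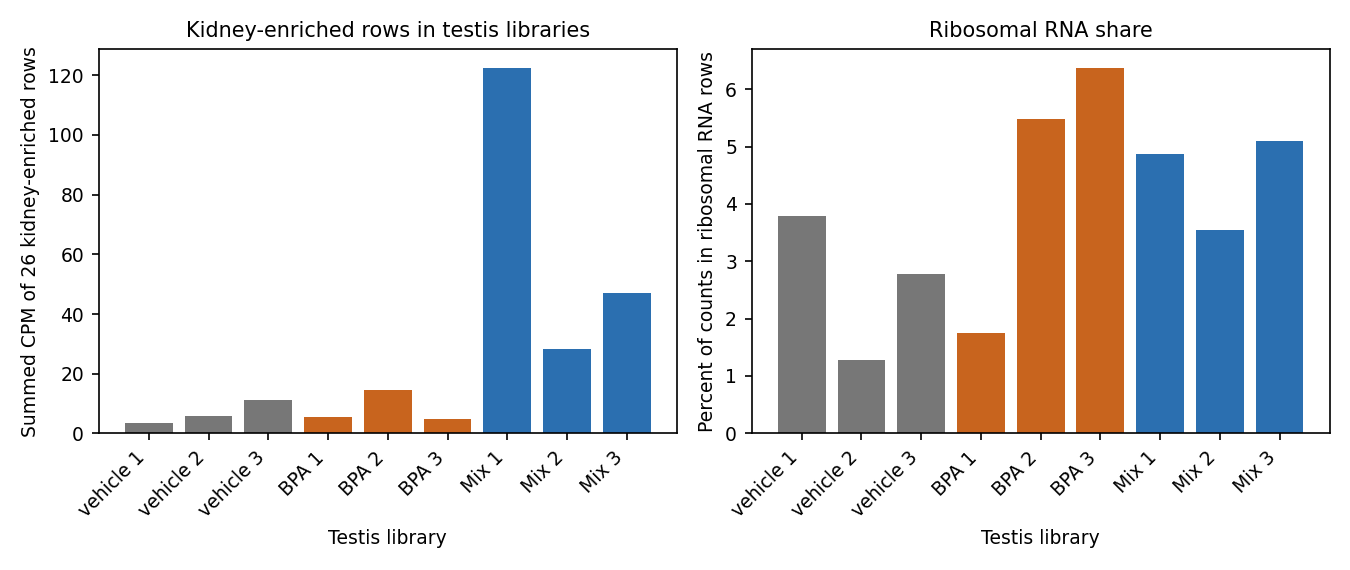
Left, summed CPM of 26 kidney-enriched rows in each testis library; right, percent of counts in ribosomal RNA rows. The 3 Mix bars on the left, from 28.4 to 122.6 CPM, are the tallest, and on the right BPA 2 and BPA 3, at 5.48% and 6.38%, are far above BPA 1.

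Kidney and liver of the same rats were used to ask whether the testis differences recur in other organs. In a joint fit of 12814 genes with the rat as a block, 23 of the 86 genes differed between testis and kidney in their Mix minus BPA difference, where 3.89% of all genes did (edgeR adjusted p below 0.05). In 21 of them the kidney value was the lower, as in 0.663% of all genes, and in Gstp1 and Mmel1 it was the higher, as in 3.22%. The 86 genes were chosen by their testis difference, which enters this contrast. That choice favours these counts and directions, and nothing is read from them. None of the 86 differed between testis and liver, where 0.0078% of all genes did. Of the 82 higher genes, 80 were tested in kidney alone. There 24 had a difference above 0, the median was -0.19 against 0.01 for all genes, and 1 gene, Catsperg1, passed (2.93% of all kidney genes passed). In liver 75 were tested, 36 had a difference above 0, the median was -0.03 and none passed, where 0.0103% of all liver genes did. Apc differed by -0.56 ± 0.33 in kidney and 1.44 ± 0.23 in testis, and the difference between organs was -2.02 ± 0.45 (adjusted p = 0.0135, edgeR). Gstp1, lower in Mix testis, gave 0.46 ± 0.16 in kidney with a difference between organs of 1.49 ± 0.24 (adjusted p = 0.00232, edgeR). Mmel1 gave 4.67 ± 0.96 in kidney, from a mean of 0.147 CPM in BPA to 3.79 CPM in Mix, with a difference between organs of 5.43 ± 0.78 (adjusted p = 0.00232, edgeR). Ms4a14 had a kidney mean of 5.49 CPM in BPA and 35.87 CPM in Mix and did not pass there. Beside the kidney values of Ms4a14, Mmel1 and Catsperg1 stand those of the spermatid transcript Tnp1 in the same kidneys. Tnp1 gave 143, 32.4 and 30.5 CPM in BPA rats, 1462, 751 and 968 CPM in Mix rats and 404, 220 and 356 CPM in vehicle rats. The part of testis RNA in the kidney values of Ms4a14, Mmel1 and Catsperg1 was not tested. The number of genes differing between kidney and testis over the whole table was 498, and it was 107 without BPA rat 2, 195 without BPA rat 3, 300 without Mix rat 3 and 863 without Mix rat 1.

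**Figure D5:**
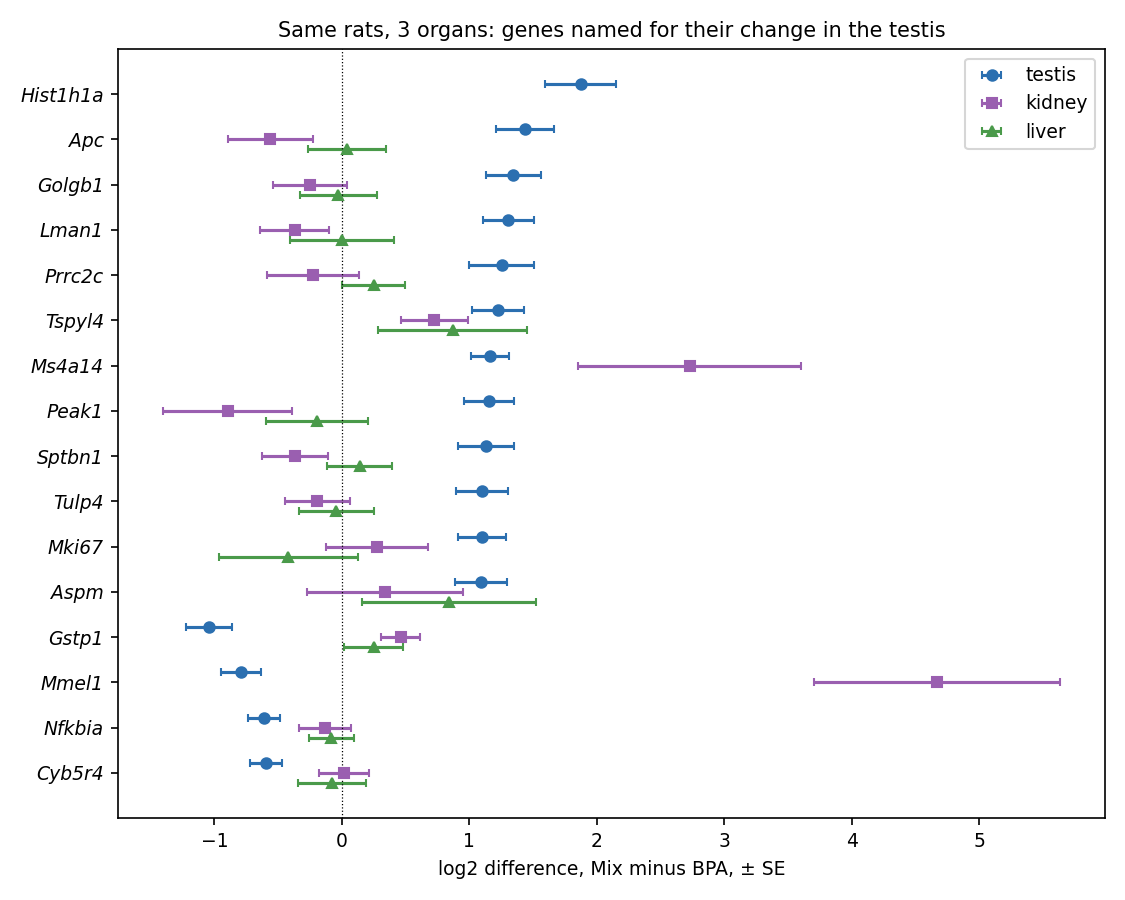
Mix minus BPA log2 difference ± SE in testis, kidney and liver of the same rats for the 12 higher and 4 lower genes named by size, where the gene was tested in that organ. Testis points of the 12 higher genes lie at 1.09 or more, while most kidney and liver points lie near 0; the kidney points of Ms4a14 and Mmel1 lie at 2.73 and 4.67, and the former did not pass.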

How the data were processed

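The authors deposited 1 table of read counts per gene, whole numbers in 17048 rows for 70 libraries. Per the labels' protocols, TRIzol was used to extract RNA and QuantSeq 3′ mRNA-Seq to make libraries. The submitters' processing notes name the rat build rn6 and, with no versions, edgeR, bedtools, Bowtie2 and FastQC. The use of strand and the counting of reads with several alignments or in overlapping genes are not given in the sources used here, so near-identical copies, overlapping genes and antisense pairs are uncertain. A single tag is counted near the 3′ end of each transcript, so counts do not scale with transcript length. No column was left out as belonging to another series. Of the rows, 316 share 1 of 149 symbols and were kept separate.

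The 9 testis libraries were fitted together with edgeR 4.0.16 in R 4.3.3 (filterByExpr by treatment, TMM scaling, quasi-likelihood test), and the Mix minus BPA contrast was adjusted by Benjamini-Hochberg over all 11098 genes tested. CPM values are TMM scaled, except for the tissue markers, the sums of organ-enriched rows and the transcripts counted in kidney, which are scaled by the library total alone. Errors of log2 differences are standard errors derived from the test statistic. A joint fit over testis, kidney and liver of the same 9 rats, whose codes recur in the labels, had the rat as a block. The fit was tested on simulated data.

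Named genes had an adjusted p below 0.05, an average log2 CPM of 2 or more and libraries that did not overlap, up to 12 each way by size of the difference; further, up to 4 passing members of each list, the 2 most abundant members of lists with none, and all tested Leydig and clock genes. Other genes, and the families of related symbols, were chosen after their values were seen. The comparison and the lists were chosen with earlier results of these data known. The values of 2 called genes are not reported here. Libraries were checked for duplicates and none was found. Same-numbered Mix and BPA libraries did not deviate together (correlations of -0.13, 0.05 and -0.07), so the replicate number was not used as a pair. Alternatives were other scalings (RLE, upper quartile), no filter, DESeq2 1.42.0, the ribosomal RNA share as a covariate, ribosomal RNA rows removed, the 6 libraries alone, a replicate block and each library left out. Leaving out both BPA rats 2 and 3, removing kidney-enriched rows and a limit of 200 CPM for those rows were added after seeing the data. Promoter sequences and the names they were matched by come from RefSeq on GRCr8; no coordinate was carried over from rn6. Each count carries counting error, and floors cover counting error only.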

Additional observations from a re-analysis of the deposited data

Results flagged for a closer look

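The Mix minus BPA difference of 23 genes called in the testis differed between kidney and testis of the same rats (edgeR interaction, adjusted p below 0.05, where 3.89% of all genes passed). The values that follow, for 22 of them, are kidney minus testis differences on the log2 scale. These genes were chosen by their testis difference, which enters each value and favours both its sign and the count. The scaffolds and cytoskeletal genes gave -2.02 for Apc, -2.21 for Peak1, -1.61 for Sptbn1, -1.48 for Macf1, -1.23 for Mylk and -1.43 for Arhgap24. Genes of nuclear pores and import gave -1.13 for Tpr, -1.35 for Ranbp2 and -1.43 for Kpnb1. Chromatin and DNA damage genes gave -1.33 for Chd1, -1.35 for Phf14, -1.10 for Zfp292 and -1.87 for Atm. Genes of protein turnover, membranes and signalling gave -1.14 for Usp34, -0.99 for Chmp3, -1.33 for Vps4a, -1.33 for Clpx and -1.48 for Taok1. In all of the genes listed so far Mix was above BPA in testis and the kidney difference was below 0. Gstp1 gave 1.49 and Mmel1 gave 5.43, both lower in Mix testis. Slc7a13 gave -8.27, a fitted value against BPA libraries at 0 in testis and thus no measure of size, and Pck1 gave -4.18.

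Kidney-enriched rows summed to 122.6, 28.37 and 47.0 CPM in the testis libraries of Mix rats 1, 2 and 3, above the 4.70 to 14.4 CPM of BPA testes. The sums were 3.61 to 11.1 CPM in vehicle testes, where the rows were chosen to be low. With these rows removed 79 genes were called. Their part in the other differences was not tested.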

How the results depend on the processing

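The count of 86 genes was 68 with RLE and 75 with upper quartile scaling, 88 without ribosomal RNA rows and 79 without kidney-enriched rows. It was 258 without the filter, 443 with DESeq2 (72.7% higher in Mix) and 546 with the ribosomal RNA share as a covariate (75.3% higher), against 0 with the 6 libraries alone, 0 with the replicate block and 0 without BPA rats 2 and 3; the cause was not tested. DESeq2 called 83 of the 86 and gave the other 3 no adjusted p. Leaving out 1 library gave 0 to 994. All 86 kept their direction in every alternative that measured them, which their non-overlapping Mix and BPA libraries make nearly certain. None of the 86 passed in every fit that left out a library.

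In the same order, the 6 called list members became 12, 18 and 25, then 0, 0 and 0, and 0 to 42 with a library left out. The 20 named genes that passed became 0, 0 and 0 with the 6 libraries, the block and without BPA rats 2 and 3, and 0 to 31 with a library left out. Clock, Cyp26b1, Hspa5 and Espn passed in DESeq2. BPA against vehicle gave 102 genes with DESeq2 and 0 to 420 with a library left out, and Mix against vehicle 4 without the filter, 19 with DESeq2 and 0 to 1. Kidney minus testis gave 107 to 863 and liver minus testis 0 to 4 with a library left out. Without the rat as a block, a model with no replicate block, kidney minus testis gave 627 and liver minus testis 3, and the latter 3 without the filter. The ribosomal RNA share difference ranged from -1.42 to 0.895 percentage points. Leaving out mitochondrial ribosomal RNA rows gave no value, since no row is named so. With 3 rats a group, a p that misses the threshold does not show equal levels.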

Other observations

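Circadian clock genes were read in full. None of 14 passed, with 12 differences above 0 and a median of 0.19. Clock, the partner of BMAL1, gave 10.4, 9.61 and 13.4 CPM in BPA rats, 19.9, 16.8 and 19.97 CPM in Mix rats and 16.5 to 18.2 CPM in vehicle rats (log2 difference 0.77 ± 0.17; edgeR adjusted p = 0.061). The BPA rats lay below both other groups. Per3 differed by 1.25 ± 0.40 (edgeR adjusted p = 0.142), Nr1d1, a repressor of the clock loop, by 0.72 ± 0.27, and Arntl, which encodes BMAL1, by 0.64 ± 0.44. Per1 (-0.06), Cry1 (-0.25), Cry2 (0.00), Dbp (0.09), Per2 (0.19), Nr1d2 (0.18), Npas2 (0.13), Nfil3 (0.18), Tef (0.56) and Ciart (0.38) did not pass either.

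No gene of the immune lists passed. None of 13 macrophage and leukocyte genes passed (median -0.33), and the complement gene C1qa differed by -1.04 ± 0.27 (edgeR adjusted p = 0.0811), while the macrophage markers Aif1 and Mrc1 gave -0.10 ± 0.12 and 0.15 ± 0.15. None of 20 MHC and interferon-induced genes passed (median -0.27). Of stress lists, none of 16 endoplasmic reticulum and amino acid response genes passed (median -0.16), and only 6 differences were above 0. The chaperones Hsp90b1 (0.55 ± 0.12, edgeR adjusted p = 0.0581) and Hspa5 (0.40 ± 0.11, edgeR adjusted p = 0.0976) had Mix above BPA in every library. This order held in 9.69% of all genes tested, and nothing is read from it. None of 18 immediate early and heat shock genes (median 0.01), 12 glucocorticoid-induced genes (median -0.09), 15 retinoid genes (median -0.04) or 9 genes of bisphenol conjugation and transport (median -0.13) passed. Cyp26b1, which degrades retinoic acid, gave 130, 104 and 94.8 CPM in BPA rats and 112.8, 217 and 228 CPM in Mix rats (log2 difference 0.76 ± 0.22; edgeR adjusted p = 0.105). None of 9 epididymis and duct genes (median -0.20) and 4 skeletal muscle genes (median -0.52) passed, and of 6 adipocyte genes Pck1 alone passed (median -0.25). Liver-enriched rows, 53 in number, summed to 11.4, 24.6 and 15.1 CPM in BPA testes and 50.7, 18.7 and 58.7 CPM in Mix testes, which overlap. Vehicle testes gave 10.95, 16.1 and 48.4 CPM, although the rows were chosen to be low there. Pck1, Cyp2c23 and G6pc are also kidney-enriched rows, and Pck1 alone gave 20.45 CPM in Mix rat 1.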
